A study of Rattus norvegicus with 8 samples.

Results

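Leptin treatment in the first days of life was compared with saline in offspring of calorie-restricted rats, by the RNA of the hypothalamus at day 21. The comparison holds 4 of the 8 arrays of the series: CR-l replicates A and B (calorie restriction, leptin) against CR-s replicates A and B (calorie restriction, saline), chosen by their titles. All 14506 genes that could be named by a single symbol were compared. The animals were female Sprague-Dawley rats. Their mothers had received 50% fewer calories from gestation day 11 to gestation day 21 and again after birth. Saline or leptin treatment ran from postnatal day 2 to day 8. The other 4 arrays, Con-s with saline and Con-l with leptin, came from offspring whose mothers ate normally, and they enter below as the reference for the same treatment without restriction. The wording of the source names leaves it possible that mothers, not pups, were treated. Whether an RNA sample pools several animals is not stated, so the p-values measure only the spread between these samples. Levels are log2 of the RMA intensity of a probe set, a difference is CR-l minus CR-s on that scale, and a level can be set against another level of the same gene only.

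Leptin is secreted by fat cells and signals through its receptor, JAK2 and STAT3 in neurons of the arcuate nucleus. There it restrains neurons that make NPY and AgRP, which raise food intake, and excites neurons that make POMC and CART, which lower it. In young rodents a surge of leptin soon after birth also acts as a growth signal for the fibres that run from the arcuate nucleus to other hypothalamic nuclei. The samples were taken well after the treatment had ended, so the comparison asks what early treatment left behind, not what leptin does while it is present.

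The tissue carried the defining genes of the hypothalamus at high levels on every array. Across the 8 arrays Oxt (oxytocin) lay between 10.96 and 11.70, Avp (vasopressin) between 9.72 and 10.16, Pmch (melanin-concentrating hormone) between 11.09 and 11.53 and Hcrt (orexin) between 9.21 and 9.75. Median intensities were 111.8 to 114.1 on the linear scale, and the replicate arrays correlated across genes at 0.9947 in CR-s and 0.9955 in CR-l. CR-s replicate B stood apart from the other 7 arrays. Its log2 values had an interquartile range of 2.92 where the others had 3.005 to 3.08, and on the second principal component (17.3% of the variance) it lay at -13.97 where the others lay between -2.88 and 5.37. Where leaving it out moves a difference, a list's median or its direction by over 1.5 times, the value without it is therefore given as well, apart from medians and differences within 0.05 of 0 in both cases.

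No gene changed with leptin in restricted offspring by limma after Benjamini-Hochberg adjustment over all genes. None of 14506 passed an adjusted p of 0.05 (0%), and the smallest adjusted p was 0.808. At an unadjusted p under 0.05 the same limma model listed 849 genes (5.85%), 442 higher with leptin (3.05%) and 407 lower (2.81%), where 725 would be listed if no gene differed. Over all 14506 genes 7694 were higher with leptin and 6812 lower, the background for every count of higher and lower genes below. The differences were small throughout. The median absolute difference was 0.07, the 5th and 95th percentiles were -0.20 and 0.18, and the median gene's 95% confidence interval reached 0.19 to either side of its estimate. A difference of at least 1.5-fold (0.585 on the log2 scale) was measured for 24 genes (0.165%), 13 higher and 11 lower. With 2 arrays against 2 an exact permutation test of a single gene cannot give a two-sided p below 0.333. Both CR-l arrays lay above both CR-s arrays for 2970 genes (20.5%) and below both for 2350 genes (16.2%), and these shares are the background for every count of non-overlapping arrays below. For 1984 of the 14506 genes both CR-l arrays lay above all 6 other arrays of the series or below all 6. That count is the background wherever a gene is placed outside all other arrays.

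The direction of the small differences went with how brightly a gene was measured. Genes were ordered by their mean level and split into 5 classes of equal size. In the dimmest class, with mean levels of 1.77 to 5.60, the median difference was -0.042, and 73 genes were higher and 192 lower at an unadjusted p under 0.05. In the next-to-brightest class, with levels of 7.99 to 9.13, the median difference was 0.034, and 105 genes were higher and 19 lower. CR-s replicate B deviated from the mean of all arrays by a median of 0.075 in the dimmest class and by -0.046 in the next-to-brightest, so its dim genes read high and its bright genes low. Without that array the median differences of these classes were 0.014 and 0.007, and the counts were 150 higher with 119 lower and 30 higher with 32 lower. The share of higher genes among those at an unadjusted p under 0.05 was 52.1%, and it was 56.6% after quantile normalization, 56.5% after cyclic loess and 78.1% among the brighter 60% of genes. The shares of higher genes and of non-overlapping arrays over all genes were not split by class. For lists of bright or dim genes they are an uneven background.

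**Figure D1:**
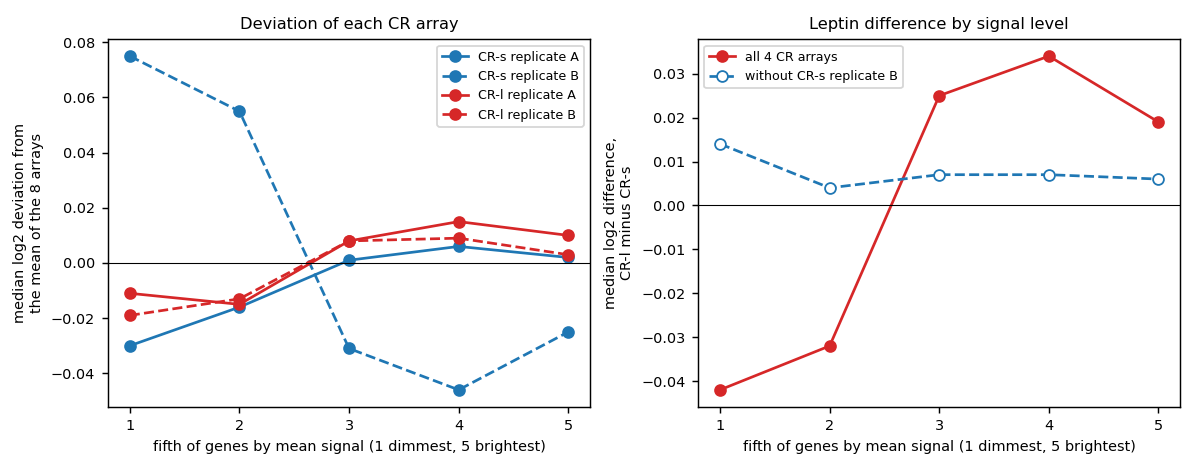
Level of a gene and its difference between leptin and saline in restricted offspring, over 5 classes of genes ordered by mean level. The left panel gives each array's median deviation from the mean of the 8 arrays on the log2 scale, and CR-s replicate B runs from 0.075 in the dimmest class to -0.046 in the fourth. The right panel gives the median log2 difference CR-l minus CR-s with all arrays and without CR-s replicate B, where it lies between 0.004 and 0.014 in all 5 classes.

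Among the peptides that raise food intake, Npy and Agrp stood above the control arrays on all 4 restricted arrays, with leptin as with saline. Npy, the peptide of the arcuate feeding neurons, read 9.95 and 9.76 on the CR-s arrays and 10.24 and 9.90 on the CR-l arrays. The groups overlapped, and all 4 values lay above the 4 control values of 8.97 to 9.50. Agrp, which blocks melanocortin receptors and is made by the same neurons, read 8.17 and 8.29 with saline and 8.33 and 7.94 with leptin, with control values of 7.37 to 7.54. The differences were 0.21 (95% interval -0.10 to 0.53) for Npy and -0.10 (-0.40 to 0.20) for Agrp. Leaving out CR-s replicate B gave 0.12 and -0.04.

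Gal (galanin) read 9.42 and 9.21 with saline and 9.21 and 9.04 with leptin, a difference of -0.19 (SE 0.12). Pmch and Hcrt, of the lateral hypothalamus, differed by -0.09 (SE 0.10) and -0.08 (SE 0.13), with both leptin arrays below both saline arrays in each. Gal differed by -0.30 and Hcrt by -0.05 without CR-s replicate B. Qrfp, a peptide of the RFamide family that raises food intake, read 7.65 and 7.97 with saline and 7.52 and 7.48 with leptin (difference -0.31, interval -0.57 to -0.05, limma adjusted p = 0.808). Its difference was -0.15 without CR-s replicate B. Of the 11 measured peptides of this kind 5 were higher and 6 lower with leptin. Both leptin arrays lay below both saline arrays in 4 and above in 1, against 16.2% and 20.5% of all genes. The median difference of the 11 was -0.084, and -0.036 without CR-s replicate B, against 0.007 over all genes.

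No peptide that lowers food intake passed the test. Pomc, the precursor of the melanocortins, read 6.26 and 6.34 with saline and 6.22 and 6.21 with leptin. Cartpt, the gene of CART, read 9.90 and 9.88 with saline and 9.82 and 9.69 with leptin. In both genes the leptin arrays lay below the saline arrays. The control arrays read 6.31 to 6.58 for Pomc and 9.88 to 10.20 for Cartpt, ranges that at least 1 restricted saline array reached and neither restricted leptin array did. The differences were -0.09 (interval -0.26 to 0.09) and -0.13 (-0.33 to 0.06), and -0.04 for Pomc without CR-s replicate B. Of 18 genes of this kind 7 were higher and 11 lower, with a median of -0.036.

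The hormones of the magnocellular and releasing neurons were spread around no difference. Oxt, which in the paraventricular nucleus also restrains feeding, read 10.96 and 11.08 with saline and 11.04 and 11.10 with leptin. These values overlapped and all lay below the control values of 11.28 to 11.70. Avp read 9.91 and 9.72 with saline and 9.96 and 10.16 with leptin, a difference of 0.24 (interval -0.05 to 0.52) and of 0.14 without CR-s replicate B. The leptin arrays were the higher ones, but they lay among the control values of 9.75 to 10.06 or just above them. Trh, whose product drives the thyroid axis, differed by -0.15 (SE 0.16), Crh, the trigger of the stress axis, by 0.01 (SE 0.07), Ghrh by -0.07 (SE 0.07) and Sst by 0.06 (SE 0.09). Without CR-s replicate B Oxt differed by 0.11, Ghrh by -0.01, Sst by -0.05 and Pcsk2, named next, by 0.04. Of 7 genes that process prohormones 5 were higher (median 0.077, and 0.037 without CR-s replicate B). Among them Pcsk2, a convertase that cuts POMC and other precursors, differed by 0.08 (SE 0.09) and Furin by 0.14 (SE 0.07). Bdnf, a growth factor that acts downstream of melanocortin signals, differed by -0.06 (SE 0.06).

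Npy1r, the Y1 receptor through which NPY acts on its target neurons, had the clearest difference of the energy-balance genes. It read 6.96 and 6.72 on the CR-s arrays and 7.25 and 7.28 on the CR-l arrays. The leptin arrays lay close together and above all 6 other arrays of the series, which ranged from 6.72 to 6.96. The difference was 0.42 (SE 0.09, interval 0.22 to 0.62), or 1.34-fold, and it did not pass (limma adjusted p = 0.808). Without CR-s replicate B it was 0.30. Npy5r, the Y5 receptor, whose gene is the next coding gene to Npy1r in the RefSeq annotation, read 5.91 and 5.82 with saline and 6.08 and 5.86 with leptin, an overlapping difference of 0.11 (SE 0.09) and of 0.06 without CR-s replicate B. Npy2r, the receptor by which NPY neurons sense their own release, differed by -0.01 (SE 0.12), and by -0.09 without that array.

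The melanocortin receptors gave no separation. Mc4r, the receptor that carries most of the feeding effect of melanocortins, read 7.53 and 7.07 with saline and 7.48 and 7.44 with leptin, so the low value was that of CR-s replicate B. Its difference was 0.16 (interval -0.30 to 0.61), and -0.07 without that array. Mc3r differed by 0.01 (interval -0.33 to 0.34), and by 0.10 without it. Mchr1, the receptor of melanin-concentrating hormone, read 8.45 and 8.48 with saline and 8.58 and 8.61 with leptin (0.13, SE 0.08). Of 17 receptors of energy-balance peptides 13 were higher with leptin and 4 lower (median 0.028), but only 7 were higher without CR-s replicate B (median -0.041). The leptin receptor gene itself shares its probe set with other symbols and was not analysed here.

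In the leptin signalling chain the 95% intervals of all 15 measured genes contained 0. Jak2, the kinase bound to the leptin receptor, read 8.23 and 8.06 with saline and 8.28 and 8.28 with leptin (0.14, interval -0.03 to 0.30), and 0.05 without CR-s replicate B. Stat3, the transcription factor it activates, read 9.05 and 9.12 with saline and 9.14 and 9.23 with leptin (0.10, interval -0.06 to 0.26), and 0.13 without that array. The leptin values of Stat3 lay above both restricted saline values and at 9.14 just below and at 9.23 within the control range of 9.15 to 9.28. The feedback inhibitors did not run together: Socs3 read 6.33 and 6.64 with saline and 6.48 on both leptin arrays (0.00, SE 0.11), Cish differed by -0.18 (SE 0.09) and the phosphatase gene Ptpn1 by 0.03 (SE 0.06). Socs3 differed by 0.15 and Cish by -0.10 without CR-s replicate B. Of the 15 genes 9 were higher and 6 lower, with a median of 0.028 and of 0.00 without CR-s replicate B.

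Of the 27 measured genes named for energy balance, 15 were higher and 12 lower with leptin. In 6 of them both leptin arrays lay above both saline arrays and in 6 below, where 20.5% and 16.2% of all genes did so. Npy1r and the insulin receptor Insr were the 2 genes with an interval that left out 0. In 25 of the 27 the whole interval lay within 1.5-fold of no difference, the exceptions being Npy1r and Mc4r, whose intervals reached 0.62 and 0.61. For Npy, Agrp, Pomc, Cartpt and Oxt a difference of 1.5-fold or more between these samples lay outside the 95% interval. The intervals hold for measured intensities, and Pomc lay in the next-to-dimmest class of genes (5.61 to 6.88), the others in brighter classes. In bulk tissue fewer cells of a type and less RNA per cell cannot be told apart, and this holds for every gene given here.

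**Figure D2:**
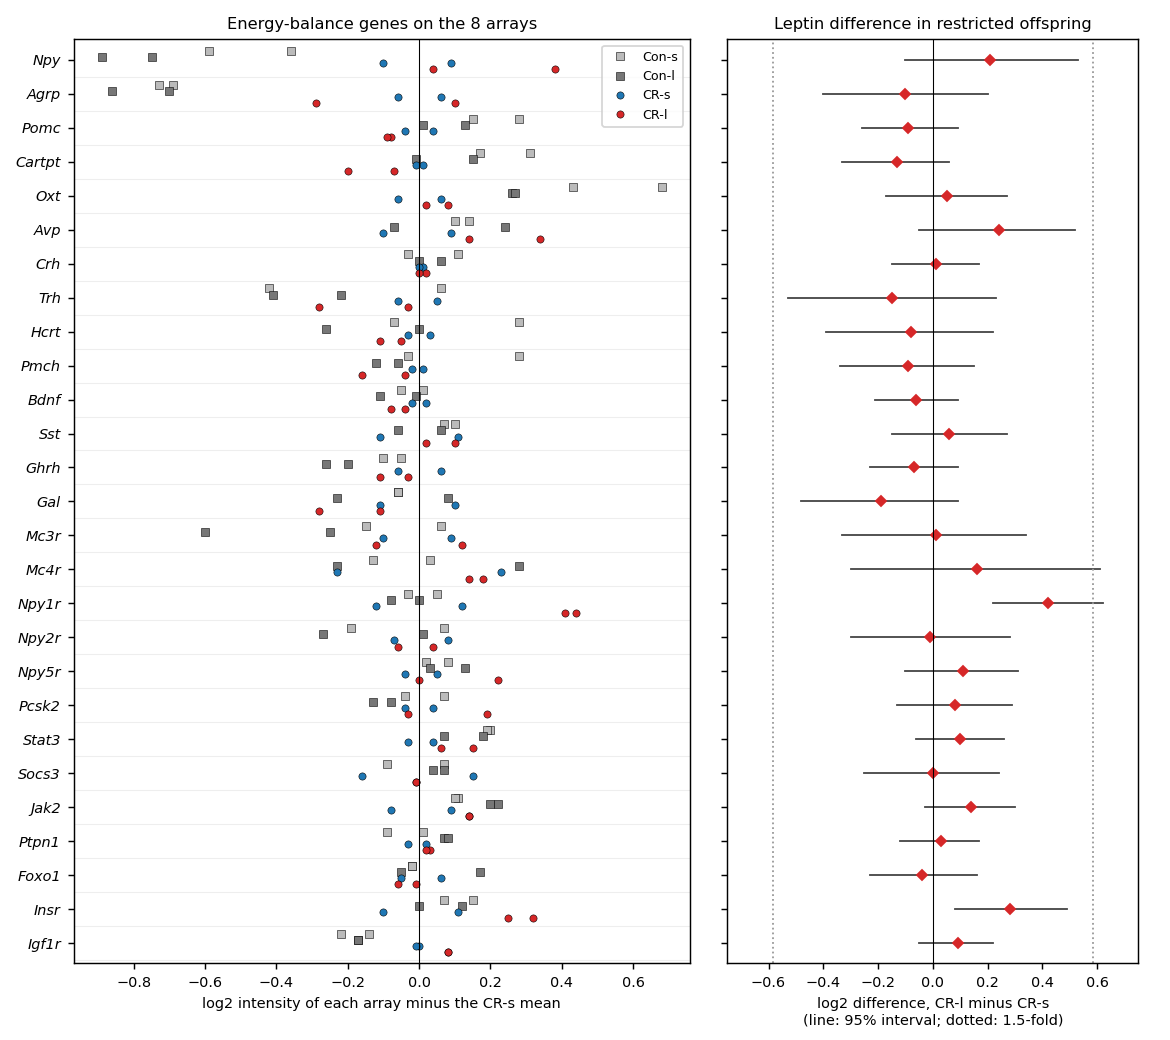
Energy-balance genes in the hypothalamus, with leptin and saline. The left panel shows each of the 8 arrays as its log2 intensity minus the CR-s mean of that gene, coloured by group, and the right panel the difference CR-l minus CR-s with its 95% limma interval, dotted lines marking 1.5-fold. Npy1r (0.42) and Insr (0.28) have intervals to the right of 0, and all other intervals contain 0.

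Genes of the growth hormone and IGF axis, which couples nutrition to growth, were higher with leptin in 14 of 15 measured members. Of all 14506 genes 7694 were higher. The median difference of the list was 0.086, and 0.089 without CR-s replicate B. Both leptin arrays lay above both saline arrays in 9 of the 15 and below in 0, where 20.5% and 16.2% of all genes did so. Higher at an unadjusted p under 0.05 were 4 of the 15, against 3.05% of all genes. None passed over all genes by limma (adjusted p = 0.808 for each of those 4). Igf1, the growth factor, read 8.25 and 7.93 with saline and 8.81 and 8.32 with leptin (0.47, SE 0.19). Igfbp5, a binding protein of IGF, read 8.88 and 8.56 with saline and 9.12 and 9.04 with leptin (0.36, SE 0.12). The leptin values of Igfbp5 lay below the control values of 9.19 to 9.41 and above both saline values. Igfbp3 differed by 0.23 (SE 0.07), with leptin values of 7.19 and 7.09 above every other array, and the receptor Igf1r by 0.09 (SE 0.06). Insr read 9.65 and 9.44 with saline and 9.79 and 9.86 with leptin (0.28, interval 0.08 to 0.49), above all 6 other arrays, and a second probe set of Insr gave 0.12. Without CR-s replicate B the differences of Igf1, Igfbp5, Igfbp3 and Insr were 0.31, 0.20, 0.18 and 0.18.

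The 10 genes named as higher with leptin were taken by the smallest p among those with at least a 1.5-fold difference, so their differences are a description. Pvr, a cell adhesion molecule of the nectin family, read 6.78 and 6.72 with saline and 7.41 and 7.67 with leptin, a difference of 0.79 (SE 0.13) and of 0.76 without CR-s replicate B. Its leptin values lay above both restricted saline values and within the control range of 7.39 to 7.81. Ccdc107, which encodes a coiled-coil protein, read 9.74 and 10.23 with saline and 10.80 and 10.87 with leptin, above all 6 other arrays (0.86, SE 0.15). Apobec1, a cytidine deaminase that edits RNA, read 5.40 and 5.78 with saline and 6.11 and 6.34 with leptin, again above the others (0.63, SE 0.13).

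The largest difference of all genes was that of Adpgk, an ADP-dependent glucokinase, at 1.22 (SE 0.47), and the gene was also high on a control array. Adpgk read 8.03 and 8.02 with saline and 9.19 and 9.31 with leptin, but it also read 9.77 on Con-l replicate B and 7.89 to 7.99 on the other control arrays. The gene thus took a high or a low value on each array, high on 3 of the 4 leptin arrays and on 0 of the 4 saline arrays. When either Con-l array was left out of the fit, Adpgk passed in CR-l against CR-s (limma adjusted p = 0.0226), because the spread of that group was then no longer counted. Abcg2, an efflux transporter of brain capillaries, read 6.40 and 6.20 with saline and 7.21 and 7.08 with leptin (0.85, SE 0.37), while the 4 control arrays ranged from 5.51 to 6.67. Grm2, a presynaptic glutamate receptor, differed by 0.70 and by 0.26 without CR-s replicate B.

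The remaining 4 of these 10 belong to gene families with close copies, for which the array may mix members. The histocompatibility genes RT1-O1 and RT1-Ba differed by 0.60 (SE 0.21) and 0.66 (SE 0.24). Cd244l1, a receptor gene of the CD244 family, differed by 0.66 on 1 probe set and by -0.03 on another. The olfactory receptor gene Or10d5jl differed by 0.66 (SE 0.28), with values from 2.82 to 4.14 and overlapping groups.

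Among the 10 genes named as lower, chosen by the same rule, Retsat had the smallest p. Retsat, which encodes retinol saturase, an enzyme that acts on vitamin A, read 10.35 and 9.95 with saline and 9.32 and 9.26 with leptin. The 4 control arrays lay between these, at 9.82 to 9.87, so saline was above and leptin below them. The difference was -0.86 (interval -1.15 to -0.58), or 1.82-fold, at a limma adjusted p of 0.808. It was -1.06 without CR-s replicate B. The limma adjusted p was then 0.0662, which takes the spread of the single saline array left from the other groups and is no added support. Rtn4ip1, a mitochondrial oxidoreductase gene, read 7.38 on both saline arrays and 6.72 and 6.81 with leptin (-0.61, SE 0.17), and the leptin values were the lowest of all 8 arrays.

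The genes that handle retinoids were evenly split: of 18 measured, Retsat included, 9 were higher and 9 lower with leptin, and the median was -0.004. Aldh1a2, an enzyme that makes retinoic acid, read 6.51 and 6.55 with saline and 6.26 and 6.35 with leptin (-0.22, SE 0.10), and Rdh10, which oxidises retinol, differed by -0.10 (SE 0.07), and by -0.16 without CR-s replicate B. The next coding genes beside Retsat in the RefSeq annotation, Elmod3 and Tgoln2, differed by 0.06 and -0.05. Those beside Ccdc107, Sit1 and Arhgef39, differed by -0.07 and 0.20.

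Of the other named lower genes, Mug1 (a murinoglobulin protease inhibitor), RT1-M1-2 (a histocompatibility gene), Or9a4 and Or2v2c (olfactory receptors) and Nat8f2 (an N-acetyltransferase) again belong to families with close copies. Their differences were -0.66, -0.67, -0.65, -0.63 and -0.84, all with both leptin arrays below both saline arrays. Scand1, a small protein with a SCAN domain, read 10.22 and 10.21 with saline and 9.07 on CR-l replicate A, with the other leptin array closer to the saline arrays (-0.68, SE 0.30). Ppef1, a calcium-binding phosphatase gene, read 6.73 and 6.97 with saline and 5.93 and 6.30 with leptin (-0.73, SE 0.34). Bmp4, a growth factor that holds back oligodendrocyte maturation, differed by -1.03 (SE 0.68), which came from CR-l replicate A alone: it read 8.10 and 7.98 with saline and 5.82 and 8.20 with leptin.

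Of the 20 genes, 16 differed with leptin in the direction opposite to CR-s minus Con-s. That comparison shares the CR-s arrays with CR-l minus CR-s, so opposite signs follow in part from the shared values and are given as such. Side by side, the restriction difference under saline was -1.05 for Pvr, 0.31 for Retsat, -0.22 for Ccdc107 and 0.10 for Adpgk. Another 4 genes were past 1.5-fold beyond these 20: Lox, which cross-links collagen (0.65), the glutamate transporter Slc17a7 (0.63), the protein kinase Prkcd (0.64) and Fam111a, a protease gene (-0.86). Slc17a7 and Prkcd belong to marker lists of neighbouring tissue, given below, and Lox, Prkcd and Fam111a were named after their values were seen. In all 4 the groups overlapped, and without CR-s replicate B they stood at 0.25, 0.09, -0.01 and 0.30. Of the 24 genes past 1.5-fold, 17 remained so without CR-s replicate B, when 44 genes in all were past it. Without CR-s replicate A 19 remained among 81.

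**Figure D3:**
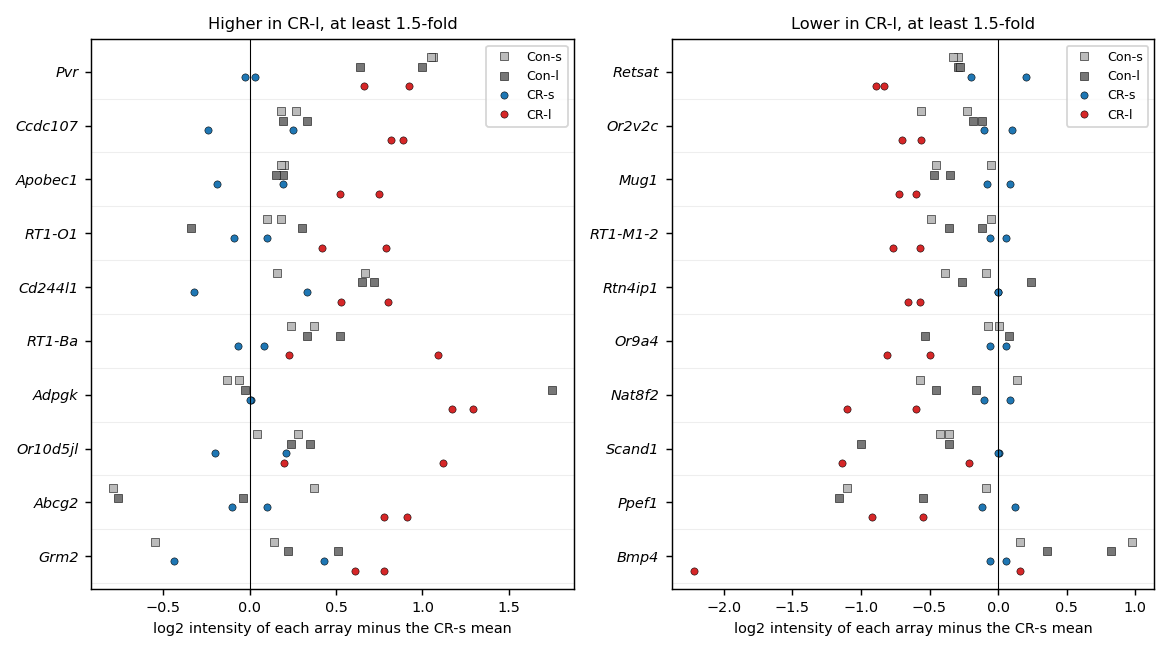
The 10 genes named as higher and the 10 named as lower with leptin in restricted offspring, each of the 8 arrays drawn as its log2 intensity minus the CR-s mean of that gene and coloured by group. The CR-l arrays of Retsat (levels 9.32 and 9.26) lie below all others, Adpgk is also high on Con-l replicate B (level 9.77), and the low point of Bmp4 is that of a single CR-l array (level 5.82).

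Across 39 lists with 559 measured genes, 19 genes were higher and 11 lower with leptin at an unadjusted p under 0.05, where 3.05% and 2.81% of all genes were, and 0 passed by limma. In 25 lists the median difference was within 0.05 of 0. In 8 it was at least 0.05 higher and in 6 at least 0.05 lower. The lists, like the genes in them, share arrays and genes, and their counts are read only against the shares over all genes. The sign of the median turned under quantile normalization or cyclic loess for lists close to 0: GABA synapse, cholesterol, fatty acid and ketone use, cell cycle, respiratory chain, and cortical and hippocampal neurons.

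Genes of axon growth and guidance were higher with leptin in 17 of 21, with a median of 0.072 and of 0.059 without CR-s replicate B. Both leptin arrays lay above both saline arrays in 11 of the 21 and below in 1, where 20.5% and 16.2% of all genes did so. None of the 21 had an unadjusted p under 0.05. Efna5, an ephrin that repels growing axons, read 8.96 and 8.89 with saline and 9.11 and 9.0 with leptin (0.13, SE 0.07). The guidance receptors Robo1 and Robo2 differed by 0.12 each (SE 0.08 and 0.07, with 0.05 for Robo1 without CR-s replicate B) and their ligand Slit1 by 0.11 (SE 0.07). The neurotrophins and their receptors did not lean this way: 7 of 12 were higher, with a median of 0.013, and Gdnf, a survival factor of neurons, differed by -0.20 (SE 0.10), and by -0.11 without that array.

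Transcription factors of hypothalamic neurons were higher in 11 of 17 (median 0.012). Of the 17, 6 had non-overlapping arrays, all of them higher, where 20.5% of all genes were. Fezf1, a factor of the ventromedial nucleus, read 7.78 and 7.61 with saline and 7.85 and 8.10 with leptin (0.28, SE 0.10). Dlx1, a factor of inhibitory neurons, read 7.74 and 7.78 with saline and 7.89 and 7.96 with leptin (0.16, SE 0.06), above all other arrays. Sim1, which specifies paraventricular neurons, differed by 0.13 (SE 0.06). None passed (limma adjusted p = 0.808 for all 3).

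Synaptic genes differed by little. Of 17 genes of the glutamate synapse 16 were higher, with a median of 0.071, but 10 were higher without CR-s replicate B and the median was then 0.026. Grin2b, a subunit of the NMDA receptor, differed by 0.15 (SE 0.08) and Gria2, of the AMPA receptor, by 0.11 (SE 0.08), and by 0.08 and 0.04 without that array. Of 14 genes of the GABA synapse 8 were higher (median 0.003), Gabrb2 at 0.21 (SE 0.11) and Gad1, an enzyme that makes GABA, at -0.12 (SE 0.09, and -0.07 without it). Of 16 immediate early genes, which report recent neuronal activity, 6 were higher and 10 lower (median -0.058, and -0.002 without CR-s replicate B). Npas4 read 6.42 and 6.46 with saline and 6.34 and 6.12 with leptin (-0.21, SE 0.08).

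The cold-induced RNA-binding protein gene Rbm3 was further above the control level with leptin than with saline. It read 10.17 and 9.94 on the CR-s arrays and 10.37 and 10.72 on the CR-l arrays, where the 4 control arrays lay between 8.80 and 9.03. The difference was 0.49 (SE 0.14, interval 0.16 to 0.82) and 0.37 without CR-s replicate B, and it did not pass (limma adjusted p = 0.808). Its relative Cirbp read 9.41 and 9.37 with saline and 9.45 and 9.68 with leptin (0.18, SE 0.08). Serpinh1, a collagen chaperone of the endoplasmic reticulum, read 8.68 and 8.65 with saline and 8.35 and 8.46 with leptin (-0.26, SE 0.06), also further from the control values of 9.09 to 9.22. The list of stress genes that holds these 3 was evenly split, with 8 of 19 higher and a median of -0.022.

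Glucocorticoid response genes were higher with leptin in 13 of 18, with a median of 0.068 and of 0.057 without CR-s replicate B. Both leptin arrays lay above both saline arrays in 7 and below in 2, where 20.5% and 16.2% of all genes did so. Cdkn1a, a cell cycle inhibitor, read 8.07 and 7.89 with saline and 8.31 and 8.21 with leptin (0.29, SE 0.09). The metallothionein Mt2A differed by 0.40 (SE 0.18, overlapping) and Klf9 by 0.15 (SE 0.08), while Pdk4, which spares glucose, differed by -0.16 (SE 0.08). Mt2A differed by 0.23 and Klf9 by 0.08 without CR-s replicate B. Among clock genes Cry2, a repressor of the clock, read 9.49 and 9.46 with saline and 9.69 and 9.68 with leptin (0.21, SE 0.06), above all other arrays. Dbp and Nr1d1, of the same list, differed by -0.13 and -0.12 (SE 0.08 each), and by -0.21 each without CR-s replicate B.

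Of 18 energy-sensing genes 12 were higher with leptin and 6 lower, with a median of 0.045. Both leptin arrays lay above both saline arrays in 8 and below in 4, where 20.5% and 16.2% of all genes did so. Higher at an unadjusted p under 0.05 were 2, against 3.05% of all genes. Prkaa2 and Prkab2, subunits of the energy sensor AMPK, differed by 0.17 and 0.14 (SE 0.07 each), 0.09 each without CR-s replicate B, and Prkaa1 by -0.12 (SE 0.07). Mtor, the nutrient-sensing kinase, read 9.12 and 9.15 with saline and 9.27 and 9.29 with leptin (0.14, SE 0.06). Of 19 genes of fatty acid and ketone use 11 were higher and 8 lower. Pnpla2, a triglyceride lipase, read 9.03 and 9.0 with saline and 9.19 and 9.13 with leptin (0.15, SE 0.06), where the control arrays lay at 8.61 to 8.64. Of 21 respiratory chain genes 10 were higher (median -0.003), and of 21 ribosomal protein genes 13 (median 0.01).

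Genes of myelin and mature oligodendrocytes were mostly lower with leptin than with saline, and Ndrg1 and Enpp2 were further from the control level. Of 19 measured 3 were higher and 16 lower, with a median of -0.089. Both leptin arrays lay below both saline arrays in 8 of the 19, where 16.2% of all genes did so. The median of the list was -0.031 without CR-s replicate B, when 8 were higher. Ndrg1 read 9.52 on both saline arrays and 9.35 and 9.15 with leptin (-0.27, SE 0.11), and its control values were 9.89 to 10.19. Enpp2 (autotaxin) read 10.73 and 10.77 with saline and 10.59 and 10.51 with leptin (-0.20, SE 0.08), with control values of 11.30 to 11.52. Mbp, of myelin basic protein, differed by -0.01 (SE 0.06) on its brightest probe set and by 0.15 on another.

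Oligodendrocyte precursor genes were higher in 7 of 10 (median 0.053, and 0.103 without CR-s replicate B). Without CR-s replicate A 5 of the 10 were higher, with a median of 0.01. Pdgfra, the growth factor receptor that defines these cells, read 9.25 and 9.27 with saline and 9.40 and 9.56 with leptin (0.22, SE 0.07), above all other arrays. Cspg4, a further marker of these cells, differed by 0.15 (SE 0.09) with overlapping groups. Its difference was 0.24 without CR-s replicate B and 0.07 without CR-s replicate A. Gpr17, another marker, differed by 0.12 (SE 0.07). Ptprz1, the brightest gene of the list, differed by -0.02 (SE 0.08). Bmp4, given above, is also in this list, at -1.03. Of 16 cholesterol synthesis genes 8 were higher (median 0.003), but 12 without CR-s replicate B (median 0.051) and 4 without CR-s replicate A (median -0.048). Hsd17b7 stood at 0.19 (SE 0.07) and Ebp at -0.15 (SE 0.08).

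Astrocyte genes were higher in 4 of 13 (median -0.030, and -0.060 without CR-s replicate B), and in 8 without CR-s replicate A (median 0.014). Gfap, the astrocyte filament protein, read 9.30 and 8.90 with saline and 8.56 and 8.89 with leptin (-0.38, SE 0.17), where the 4 control arrays read 9.67 to 10.13. Its difference was -0.58 without CR-s replicate B and -0.18 without CR-s replicate A. Slc1a2, the astrocyte glutamate transporter, differed by -0.02 (SE 0.06). Of 15 microglia genes 10 were higher (median 0.021), and 6 without CR-s replicate B. Of 17 vessel genes 11 were higher (median 0.052, and 0.030 without CR-s replicate B): the endothelial Tek and Slco1a4 differed by 0.23 (SE 0.09) and 0.19 (SE 0.07), and the pericyte gene Rgs5 by -0.16 (SE 0.06, and -0.09 without that array). Interferon response genes were lower in 13 of 20 (median -0.086, and -0.080 without CR-s replicate B), with Psmb8, of the immunoproteasome, at -0.21 (SE 0.09).

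Lists of the ventricle lining and surfaces turned with the saline arrays used. Of 11 genes of ependyma and tanycytes 6 were higher (median 0.022), of 16 meningeal genes 7 (median -0.014) and of 13 choroid plexus genes 7 (median 0.015), with overlapping summed levels in the meningeal list. Without CR-s replicate B 3 ependymal genes were higher (median -0.020), 8 meningeal (median 0.018) and 5 of the choroid plexus (median -0.029). In the choroid plexus list both leptin arrays lay below both saline arrays in 6 genes and above in 1. Of all genes 16.2% lay below and 20.5% above. In the same list 2 genes were lower at an unadjusted p under 0.05, against 2.81% of all genes. That list summed to 99.2 and 100.8% of the CR-s mean with saline and to 92.5 and 90.4% with leptin. The sum is of linear levels and follows the brightest members most. The brightest was Enpp2, given above with the myelin genes, at a difference of -0.20, while the median level of the list was 6.218. Ptgds, a prostaglandin synthase of the meninges, read 10.12 and 9.63 with saline and 9.77 and 9.89 with leptin, far below the control values of 11.22 to 11.67. Its difference was -0.05 (SE 0.19), and -0.29 without CR-s replicate B. Monoamine genes were evenly split, with 8 of 16 higher (median -0.014), and of 11 thyroid hormone genes 6 were higher (median 0.022, and 0.058 without that array).

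Markers of neighbouring tissue were present at levels that varied from array to array, and their part in the differences was not tested. Summed over the list as a percentage of the CR-s mean, 11 thalamic markers stood at 106.4 and 93.6 on the saline arrays and at 120.8 and 100.2 on the leptin arrays, so the groups overlapped. Their median difference was 0.181, the highest of the 39 lists, and 0.048 without CR-s replicate B. Prkcd, a marker of thalamic relay neurons, ranged from 8.33 to 10.30 over the 4 restricted arrays and Slc17a7, a glutamate transporter of cortex and thalamus, from 7.65 to 9.25. Pvalb, in the same list, went the other way (8.39 and 8.59 with saline, 7.98 and 8.26 with leptin, -0.37, SE 0.10). The striatal list had 4 of 12 genes higher (median -0.032), and 1 without CR-s replicate B (median -0.136). It summed to 105.6 and 94.4 with saline and to 93.9 and 96.7 with leptin. The lowest difference of the list was that of Ppp1r1b, a dopamine signalling protein of striatal neurons. Ppp1r1b differed by -0.51 (SE 0.25, and -0.76 without CR-s replicate B). Penk, the brightest gene of the list, differed by 0.01 (SE 0.15). Red blood cell genes had the lowest median of all lists, -0.132, with sums of 100.7 and 99.3 with saline and 106.2 and 75.6 with leptin. The 9 pituitary hormone genes summed to 96.8 and 103.2 with saline and to 96.1 and 89.4 with leptin, and 2 of them were higher (median -0.051, and -0.104 without CR-s replicate B). No marker of these lists was at 0, since RMA intensities do not reach it.

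**Figure D4:**
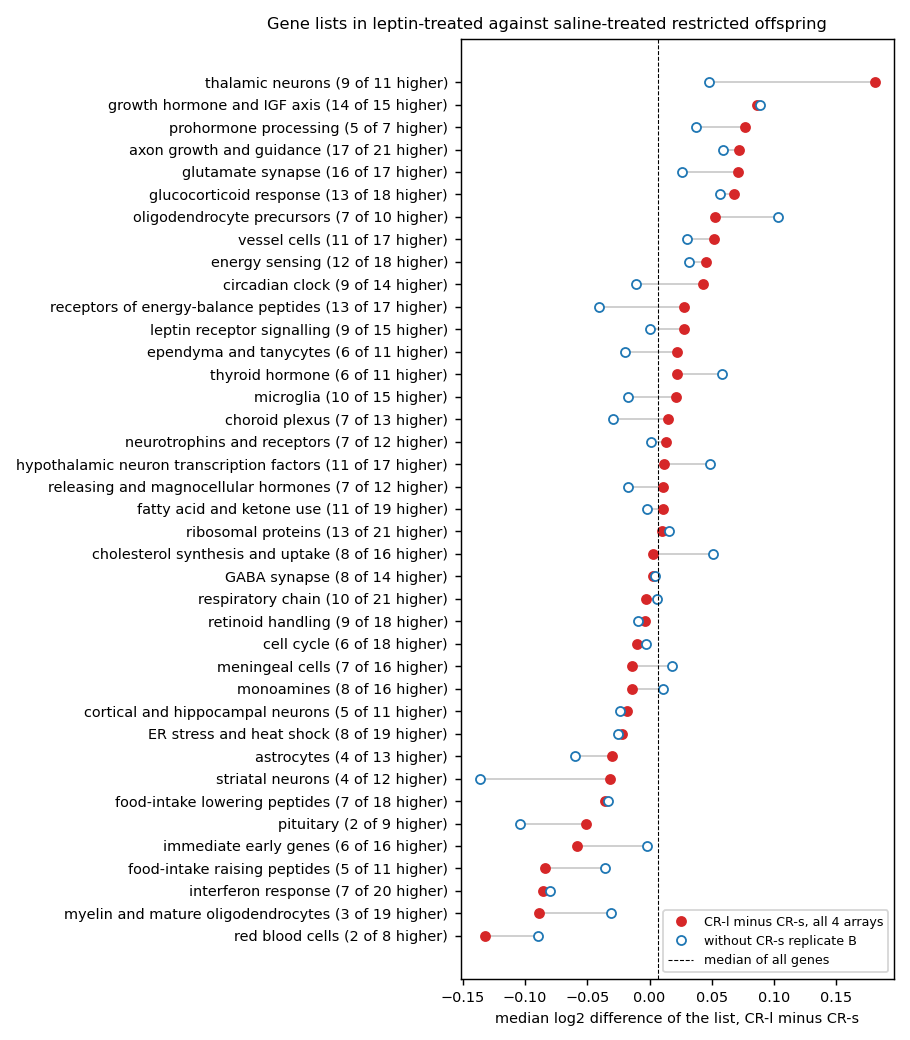
Median log2 difference CR-l minus CR-s of each of the 39 gene lists, with all arrays and without CR-s replicate B. The medians run from -0.132 for red blood cells to 0.181 for thalamic neurons, the growth hormone and IGF axis lies at 0.086 in the first and 0.089 in the second, and the thalamic list lies at 0.048 without that array.

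The same treatment in offspring of normally fed mothers shares no arrays with this comparison, and the differences in the 2 diets were almost uncorrelated across genes. Between CR-l minus CR-s and Con-l minus Con-s, Pearson's r was 0.02 and Spearman's rho 0.02 over 14506 genes, which are not independent replicates. Of the 849 genes at an unadjusted p under 0.05 in restricted offspring, 441 (51.9%) had the same sign in control offspring, against 50.4% of all genes. The test of the difference itself, the interaction of diet and leptin, passed for no gene by limma (0%, smallest adjusted p 0.278), and 747 genes (5.15%) had an unadjusted p under 0.05.

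For Npy the leptin difference had opposite signs in the 2 diets, and the test of that contrast did not pass. Con-l minus Con-s was -0.34 (SE 0.13), with values of 9.50 and 9.27 under saline and 9.11 and 8.97 under leptin. The interaction was 0.55 (SE 0.19, limma adjusted p = 0.898). Oxt likewise differed by -0.29 in control and 0.05 in restricted offspring (interaction 0.34, limma adjusted p = 0.898). For Npy1r the values were -0.04 and 0.42 (interaction 0.46, limma adjusted p = 0.898), and for Insr -0.05 and 0.28 (interaction 0.34).

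The smallest p of the interaction belonged to the olfactory receptor gene Or5b104, with a difference of 0.58 in restricted and -0.45 in control offspring (interaction 1.03, limma adjusted p = 0.278). Its levels, 2.33 to 3.11, are among the dimmest on the array. Pvr had an interaction of 1.03, Hif3a, a hypoxia-inducible factor, of 0.76 and Kng2l1, a kininogen gene, of 0.67. Hif3a read 7.07 and 7.18 with saline and 7.32 and 7.64 with leptin in restricted offspring, and 6.94 and 6.83 against 6.35 and 6.59 in control offspring. For Eif3i, a subunit of a translation initiation factor, the interaction of 0.65 came from control offspring (-0.65), with 0.01 in restricted offspring and 0.06 there without CR-s replicate B. On the other side stood Retsat (-0.89), Or2v2c (-0.87), Or1o11 (-0.92, with -0.09 in restricted offspring and -0.25 there without CR-s replicate B), Or5p59 (-0.61) and Or5b124 (-0.60). Retsat differed by 0.02 in control offspring, where all 4 arrays lay within 9.82 to 9.87. All of these but Or5b104 had a limma adjusted p of 0.898.

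**Figure D5:**
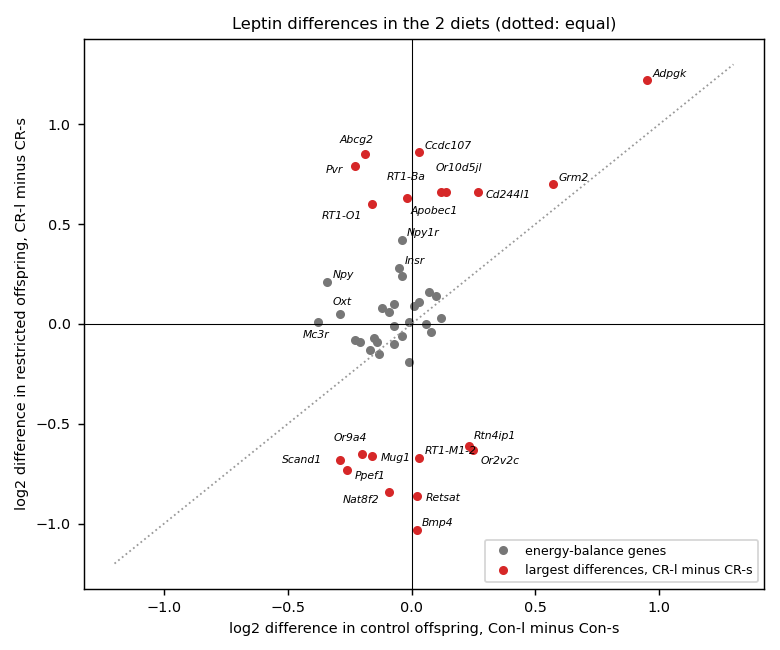
Leptin difference in restricted offspring (CR-l minus CR-s, vertical axis) against that in control offspring (Con-l minus Con-s, horizontal axis), log2 scale, for the energy-balance genes and the 20 genes named as higher or lower by the smallest p among those past 1.5-fold. Equal differences would lie on the dotted line. Adpgk (1.22 and 0.95) and Grm2 (0.70 and 0.57) lie near it, Retsat, Ccdc107 and Bmp4 lie on the vertical line at about 0 in control offspring, and Npy stands at 0.21 and -0.34.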

How the data were processed

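Hypothalamic RNA was measured on 8 Affymetrix Rat Gene 1.0 arrays, 2 for each of 4 groups. Per the submitters' processing notes the deposited values were made by RMA with the software Affymetrix Expression Console (version not given). The authors' deposited values are intensities on the linear scale. They were log2-transformed here and not normalized again. Of 29215 probe sets, 15310 had 1 gene symbol in the platform annotation and 323 had several, and the rest were not named. The brightest probe set was kept per gene (527 genes had several), which gave 14506 genes, with no filter on dim ones.

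One limma model with 4 group means was fitted over the 8 arrays (limma 3.58.1, R 4.3.3, eBayes, 4 residual and 3.21 prior degrees of freedom), with two-sided tests and Benjamini-Hochberg adjustment over all genes at 0.05. Standard errors and 95% intervals are those of that model. The number of arrays limits the precision. The leptin-treated control group, once written Con-r in the design text, was read as Con-l from the titles.

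The members and lists were chosen with earlier results of these data known. Text names the energy-balance genes and up to 10 genes in each direction by smallest p among those at least 1.5-fold apart. For the interaction it names up to 5 in each direction. Of a list it names genes among the 4 with the smallest p, and of some marker lists the brightest member. The brightest members not given above were Arnt2 (-0.02), Calb2 (-0.04), Camk2a (0.05), Vim (0.06), Cx3cr1 (0.12), Lhb (-0.18) and Hbb (-0.26). Without CR-s replicate B Vim differed by -0.05 and Cx3cr1 by 0.06. The fit was tested on simulated data. Lepr, Pcsk1 and Irs2 were not analysed here. The build behind the array is not given, and RefSeq served for names and neighbours alone. Alternatives were quantile normalization, cyclic loess, the brighter 60% of genes, the mean of a gene's probe sets, all probe sets, the 4 CR arrays alone, trend and robust variance, the replicate block, and each array left out.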

Additional observations from a re-analysis of the deposited data

How the results depend on the processing

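With limma, 0 genes passed in CR-l minus CR-s and in the interaction under every alternative run except 3 in which a Con-l array was left out. Without Con-l replicate A, and without Con-l replicate B, 1 gene passed in CR-l minus CR-s (Adpgk in both), so the count ranged from 0 to 1. Without Con-l replicate B 1 gene passed in the interaction (Cga, a pituitary hormone subunit named after its values were seen, limma adjusted p = 0.0146), also a range of 0 to 1. Cga read 9.19 on Con-l replicate A and 5.83 to 6.19 on the other arrays. Genes at an unadjusted p under 0.05 numbered 655 to 1404 in CR-l minus CR-s when 1 array was left out, lowest without CR-s replicate B and highest without CR-s replicate A. In the interaction they numbered 581 to 1126, highest again without CR-s replicate A. The other settings gave 631 to 927 and 535 to 841. With the replicate letters as a block (replicate block) 925 and 841 genes had an unadjusted p under 0.05 and 0 passed. Little shared deviation by letter was seen: the deviations of CR-s and CR-l arrays of the same letter correlated at 0.062, and no pair of groups was above 0.109. These correlations cannot show whether arrays of the same letter share an origin. Higher genes made up 52.1% of the 849, and 62.5% with trend and robust variance and 46.9% with the 4 CR arrays alone. When each array was left out in turn, signs turned, by a shift of at least the standard error, for 10 of the 111 genes for which this was run. Pcsk2 ranged from -0.04 to 0.19, Ptgds from -0.29 to 0.20, Agrp from -0.29 to 0.09, Npy5r from 0.00 to 0.22, Bmp4 from -2.22 to 0.16 (positive without CR-l replicate A), Or1o11 from -0.25 to 0.08, Sst from -0.05 to 0.18, Mc4r from -0.07 to 0.39, Socs3 from -0.16 to 0.15 and Fam111a from -2.02 to 0.30, the upper or lower end of the last 4 being without CR-s replicate B. Among these 111 genes smaller shifts, to 0.01 or more beyond 0, also turned Oxt, Mc3r, Npy2r, Eif3i, Mbp, Slc1a2 and Prkcd. The mean of its probe sets turned Mbp to 0.07. The cause was not tested. Of 312 list medians with 1 array left out 51 moved by more than the spread between arrays, and of 312 under other settings 28. The signal of dim genes such as the olfactory receptors limits what their differences can show.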
